A study of Mus musculus with 33 samples.

Results

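The genes described are 10 that mouse macrophages use to bind, engulf or digest dying cells, or that mark macrophages: C1qa, C1qb, C1qc, Timd4, Mertk, Axl, Mfge8, Csf1r, Adgre1 and Mpeg1. They were chosen by gene symbol, and each symbol was found on the array, with 15 probe sets of the 45037 in all. A probe set is a group of short array oligonucleotides that reads 1 transcript, and 14 of the 15 passed the filter on low signals, which left all 10 genes among the 13463 tested. The samples came from the thymus of male C57BL6 mice aged 4 to 6 weeks with no treatment or engineered allele named. They were 7 arrays of microdissected whole cortex, 7 of whole medulla, 3 each of subcapsular, central and perimedullary cortex, 5 of sorted cortical thymocytes (CD3-/lo and CD45+, with CD90 or CD117) and 5 of sorted medullary thymocytes (CD3hi and CD45+). The study set thymic regions against sorted cortical and medullary thymocytes. This was done so that expression of the stroma and of other resident cells could be mapped by region.

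Median signals of the 33 arrays ran from 71.9 to 163, and arrays of 1 group correlated at 0.936 to 0.988. The value exceeded by 0.1% of the probe sets was above 42000 on 13 arrays (whole cortex 1 to 5, whole medulla 1 to 5 and medullary thymocytes 1 to 3) and at most 19984 on the 9 arrays of the cortical subregions, so whole regions and subregions stood apart as sets of arrays. Signals of the mean subregion against whole cortex, a check added after the data were seen, gave 14.3% of all genes called, 7.25% higher and 7.06% lower, although the subregions are parts of the cortex, with C1qa lower by a log2 difference of -2.10 (SE 0.13) and Axl by -1.55 (SE 0.15). In a comparison of a whole region with a subregion array set and region cannot be told apart, so a call there is a call between these arrays. Dissected tissue went through RNAqueous Micro columns (Ambion) and sorted cells through RNeasy Mini columns (Qiagen), so in any comparison of tissue with cells the kit cannot be told apart from the sample. The titles name biological replicates without tying arrays to animals, so the p-values measure the spread between these arrays.

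Most thymocytes die in the thymus, and macrophages clear them by efferocytosis. A dying cell exposes phosphatidylserine, which receptors such as TIM-4 bind directly. MERTK and AXL reach it through bridging proteins, GAS6 for both and protein S for MERTK. C1q, built from the chains encoded by C1qa, C1qb and C1qc, and MFG-E8 coat dying cells and link them to the phagocyte. Tissue macrophages depend on the CSF1 receptor, carry the surface receptor F4/80 (Adgre1) and make perforin-2 (Mpeg1), a pore-forming protein of the phagosome.

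The 3 C1q genes are consecutive genes on chromosome 4, in the order C1qb, C1qc, C1qa. Promoters of 7 of the 10 genes were matched by symbol to RefSeq sequences (GRCm38.p6), and 3 are shown because C1qb and C1qc lie side by side and Timd4 had the largest fold of the 10 between cortical subregions. Each is the 250 bases before the gene's start, 5′ to 3′ on the gene's strand, with matches on either strand in capitals to GAGGAA, the core letters of sites of the macrophage factor PU.1, TGCTGA, part of the MAF recognition element, and TGACTCA, the AP-1 site. C1qb lies at chr4:136886201-136886450 on the minus strand, C1qc at chr4:136892915-136893164 on the minus strand and Timd4 at chr11:46810549-46810798 on the plus strand.
C1qb: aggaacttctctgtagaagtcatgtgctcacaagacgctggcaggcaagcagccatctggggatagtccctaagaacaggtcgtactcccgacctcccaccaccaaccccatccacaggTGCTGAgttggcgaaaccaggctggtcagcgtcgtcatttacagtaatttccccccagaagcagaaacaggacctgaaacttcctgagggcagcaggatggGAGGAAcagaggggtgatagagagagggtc
C1qc: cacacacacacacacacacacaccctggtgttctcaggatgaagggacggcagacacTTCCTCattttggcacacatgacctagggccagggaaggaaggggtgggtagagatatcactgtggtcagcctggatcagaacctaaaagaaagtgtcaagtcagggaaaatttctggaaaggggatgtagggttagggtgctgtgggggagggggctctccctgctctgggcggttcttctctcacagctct
Timd4: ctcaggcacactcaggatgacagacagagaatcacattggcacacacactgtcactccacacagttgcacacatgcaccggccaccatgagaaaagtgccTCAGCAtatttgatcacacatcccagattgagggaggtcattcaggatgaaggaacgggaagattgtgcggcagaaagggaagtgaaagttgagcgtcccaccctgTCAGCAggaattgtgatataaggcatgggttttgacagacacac
The C1qb promoter held GAGGAA 25 to 30 bases and TGCTGA 126 to 131 bases before the start. The C1qc promoter held GAGGAA read on the opposite strand (TTCCTC), 188 to 193 bases before the start. The Timd4 promoter held TGCTGA on the opposite strand (TCAGCA) at 39 to 44 and at 145 to 150 bases. Among 32536 promoters of the same length, 23.4% held GAGGAA, 16.1% TGCTGA and 4.45% TGACTCA, so these matches are a description of the letters and mark no binding site. Searched in the same way, the promoters of Axl and Mfge8 held GAGGAA, and those of Mertk and Mpeg1 held none of the 3 motifs.

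The C1q genes and Mpeg1 were near the floor of the arrays in sorted thymocytes and high in every dissected region. C1qa read 4.08, 2.28, 9.89, 5.02 and 3.57 in cortical thymocytes and 4.01, 8.85, 4.54, 4.91 and 3.99 in medullary thymocytes, all under the offset of 26.2 that was added before taking log2. In whole cortex its lowest, median and highest signals were 1323, 1811 and 2481, and in whole medulla 3705, 4889 and 5649. No dissected array came near a sorted one, and no fold is given because the sorted signals lie under the offset. Mpeg1 averaged 14.0 ± 3.28 (SD, n = 5) in cortical and 13.2 ± 5.73 (SD, n = 5) in medullary thymocytes, against 1495 ± 292 (SD, n = 7) in whole cortex and 6512 ± 855 (SD, n = 7) in whole medulla.

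A gene was called when its adjusted p was below 0.05 and its log2 fold change was at least 1 in either direction. All p-values across genes come from limma with Benjamini-Hochberg adjustment. In whole cortex against cortical thymocytes 9 of the 10 were called higher, where 9.64% of all genes were and 1.52% were lower (11.2% in either direction). In whole medulla against medullary thymocytes 10 of 10 were higher, where 19.5% of all genes were (20.7% in either direction). These counts are a description only: C1qa, C1qb, C1qc, Timd4, Mertk and Mpeg1 were above the array median on 0 of the 10 sorted arrays, so 6 of the 10 genes passed the filter through the dissected arrays alone. The other 4 were above it on 10 (Axl), 10 (Mfge8), 6 (Csf1r) and 3 (Adgre1) of the 10. Mfge8, whose product bridges phosphatidylserine and integrins, was not called in cortex: it averaged 644 ± 71.6 (SD, n = 5) in cortical thymocytes and 1143 ± 241 (SD, n = 7) in whole cortex, a log2 difference of 0.78 (SE 0.12, adjusted p = 1.4e-06). It also had the smallest difference of the 10 in medulla, at 1.26 (SE 0.12, adjusted p = 1.5e-11). The sorted arrays, with C1qa under the offset on each, gave Mfge8 signals of 584 to 954 and Axl signals of 89.5 to 256. The macrophage genes Csf1r, at 42.1 to 148, and Adgre1, at 52.2 to 104, were also above the offset on each sorted array. The part of carried-over macrophages in the sorted values was not tested. Each dissected sample mixes many cell types, so fewer macrophages and less RNA per macrophage cannot be told apart here.

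**Figure D1:**
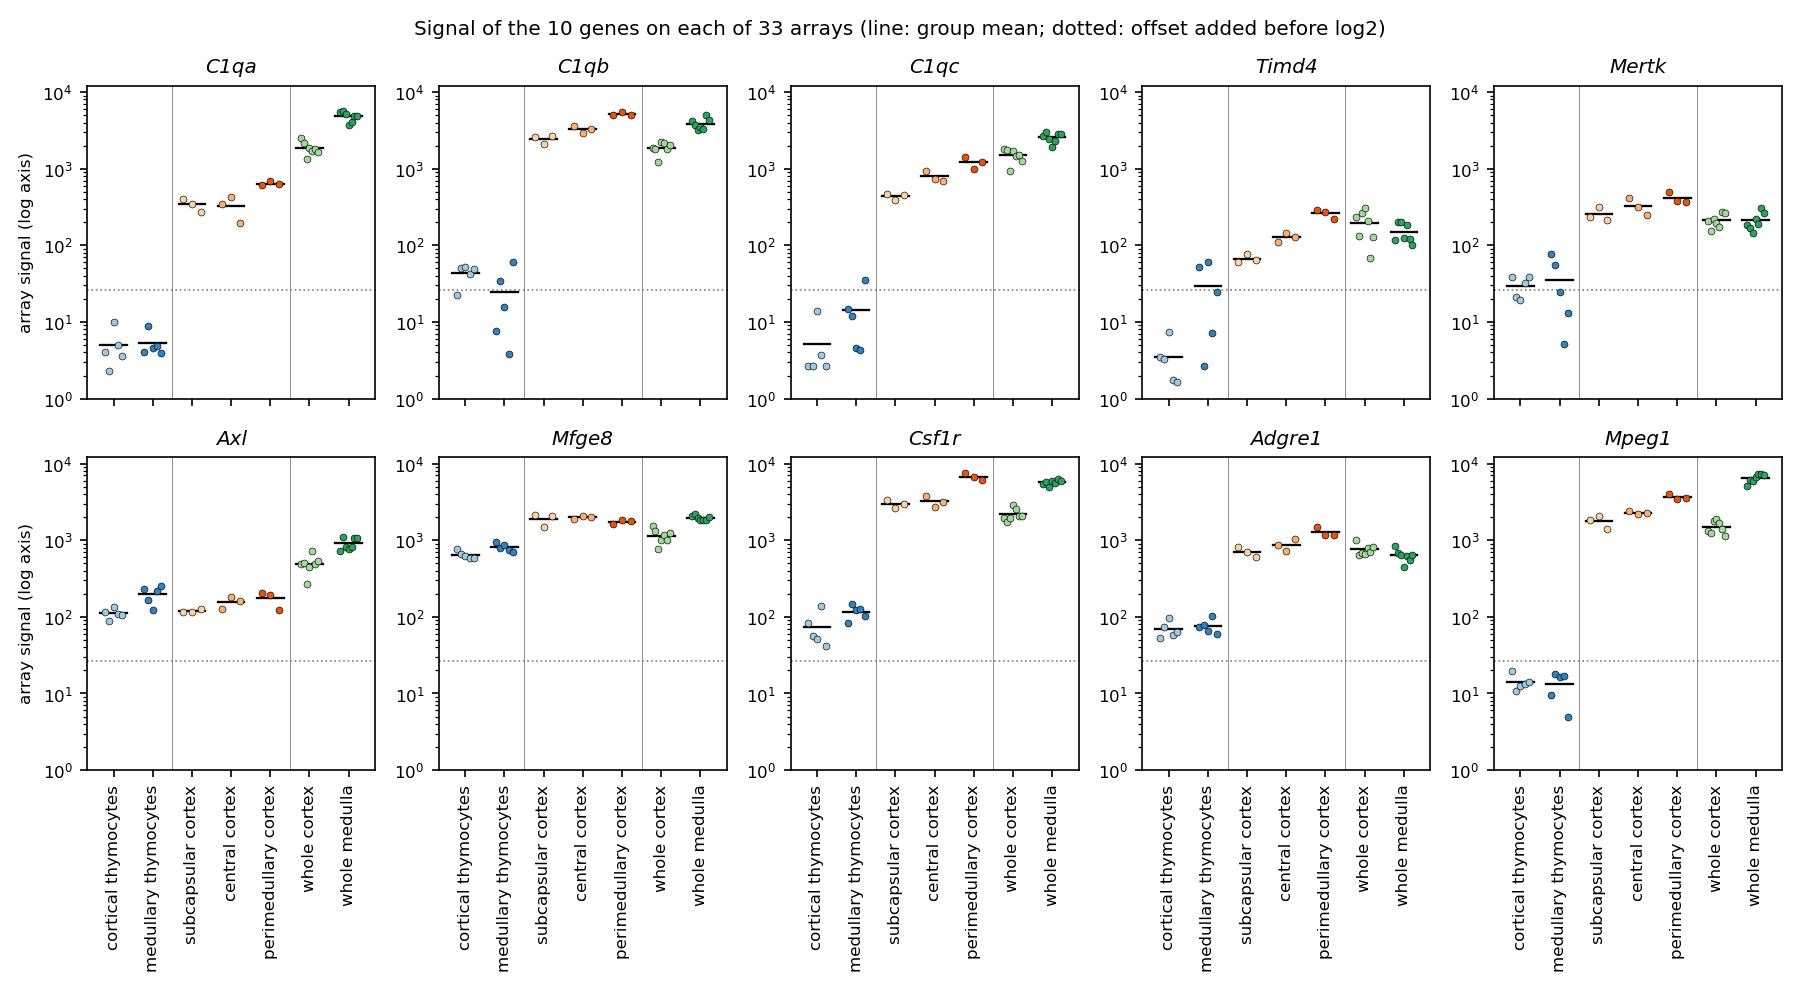
Array signal (log axis) of the 10 genes, by the probe set with the highest mean, on each of the 33 arrays in 7 groups. Points are arrays, lines are group means and the dotted line is the offset of 26.2, and the sorted thymocytes have the lowest means for every gene but Axl, whose medullary thymocytes overlap the cortical subregions.

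Whole medulla was set against whole cortex to ask where in the organ these genes are expressed. Of the 10 genes 4 were called higher in medulla (Mpeg1, Csf1r, C1qa and C1qb) and 0 lower. For 7 every medullary array was above every cortical array, a description only, since the share of all genes with arrays apart was not counted. Among all genes 18.7% were called higher and 5.39% lower, and 24.0% in either direction. The median log2 fold change was 0.83 over the 10 genes and 0.11 over all genes. The 4 called genes are all carried by macrophages, but Adgre1, the F4/80 gene, Timd4 and Mertk were not among them and their arrays overlapped.

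Each C1q gene had all medullary arrays above all cortical arrays. For C1qa, with the signals given above, the log2 difference was 1.37 (SE 0.13, adjusted p = 6.1e-11). C1qb signals had a lowest, median and highest of 1233, 1891 and 2233 in cortex and of 3223, 3694 and 4962 in medulla, and differed by 1.04 on the log2 scale (SE 0.16, adjusted p = 1.2e-06). C1qc ran from 941 through a median of 1495 to 1795 in cortex and from 1942 through 2673 to 2969 in medulla. Its arrays lay apart, but its log2 fold change of 0.80 (SE 0.15, adjusted p = 1.7e-05) stayed under the fold threshold. The call on C1qb was close to that threshold: it fell to 0.94 without whole cortex replicate 3 and to 0.97 without whole medulla replicate 6.

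The receptors that reach phosphatidylserine directly or through a bridge did not share 1 pattern. Timd4, which encodes TIM-4, spread from 69.3 through a median of 208 to 309 in cortex and from 102 through 124 to 201 in medulla. The ranges overlapped over most of their width, with a log2 fold change of -0.24 (95% interval -0.73 to 0.26, adjusted p = 0.41). Mertk, a receptor kinase of resting macrophages, ran from 154 through 210.1 to 274 in cortex and from 146 through 192 to 310.4 in medulla, with a log2 fold change of -0.02 (95% interval -0.44 to 0.40, adjusted p = 0.94). With the scaling as deposited and the offset added, both intervals exclude a change of 2-fold in either direction. No interval is given under another scaling. Axl, the related kinase, ran from 265 through 496 to 715 in cortex and from 728 through 823 to 1097 in medulla. Every medullary Axl array was above every cortical one, and the log2 fold change of 0.87 (SE 0.16, adjusted p = 1.7e-05) was under the fold threshold. The bridging gene Mfge8 gave 772, 1169 and 1515 in cortex and 1816, 1943 and 2225 in medulla as lowest, median and highest, also with no overlap and a log2 difference of 0.79 (SE 0.11, adjusted p = 5.9e-08).

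The genes that mark macrophages went separate ways. Mpeg1 ran from 1136 through a median of 1409 to 1879 in cortex and from 5085 through 6598 to 7364 in medulla. Its gap between the groups was the widest of the 10, with a log2 difference of 2.12 (SE 0.11, adjusted p = 5.0e-18). Csf1r, the receptor for CSF1 and IL-34, ran from 1735 through 2068 to 2845 in cortex and from 5013 through 5704 to 6259.7 in medulla, a log2 difference of 1.39 (SE 0.14, adjusted p = 5.4e-11). Adgre1 ran from 647 through 700.2 to 1020.5 in cortex and from 448 through 641 to 834 in medulla. Its arrays overlapped, and its log2 fold change was -0.26 (95% interval -0.53 to 0.01, adjusted p = 0.085).

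Values on scaling and on markers of other cells belong beside these results. When each array was scaled to the same median, the median fold of all genes moved from 0.11 to -0.26, the share of called genes that were higher went from 77.6% to 52.1%, and Mpeg1 alone of the 10 was called, at 1.70, with Csf1r at 0.98 and C1qa at 0.96. Dendritic cell markers moved with the same comparison: 9 of 11 were called higher, their summed signal was 4878 to 6144 in whole cortex and 32700.2 to 51908 in whole medulla, and none of the 11 had a mean under the offset in either group. B cell markers were called higher in 4 of 6, with sums of 890.5 to 1424 and 2267 to 4108. Mesenchymal markers (6 of 9 higher, sums of 4021 to 6575 and 11306 to 15540.0), endothelial markers (2 of 4 higher, 551 to 859.6 and 1035 to 1574) and medullary epithelial markers (4 of 5 higher, 777 to 1616 and 13505 to 16545) also moved with it. Thymocyte markers (4 of 6 lower, 64137 to 91979 and 7227 to 12212) and cortical epithelial markers (3 of 4 lower, 41793 to 62054 and 11461 to 16034) moved the other way. Of 18 macrophage markers that are not among the 10 genes, 6 were called higher (Cybb, Lyz2, Aif1, Cd14, Lgmn and Tyrobp) and 3 lower (Slc40a1, Cd163 and Mrc1), with sums of 14561 to 18081 and 30292 to 38871 and none with a mean under the offset. The part of these cell types in the values of the 10 genes was not tested.

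**Figure D2:**
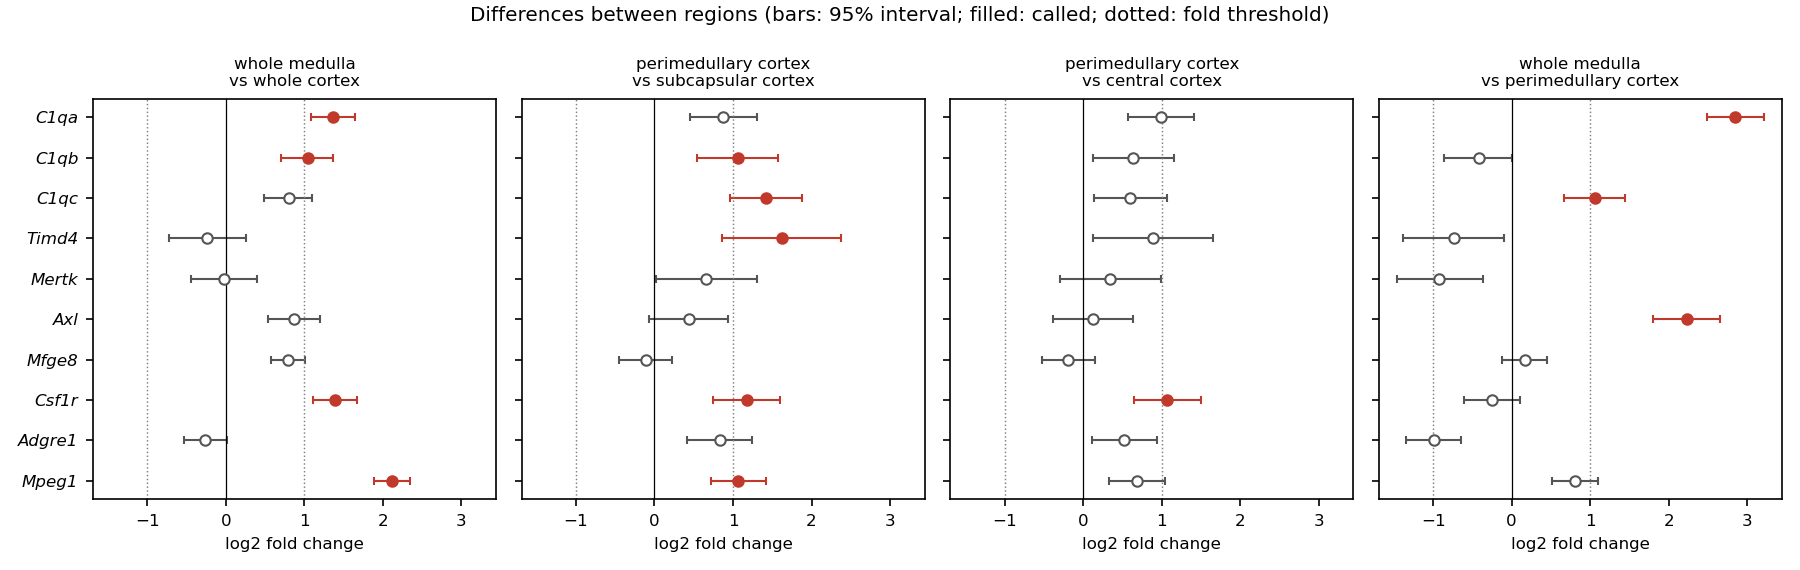
Log2 fold change of each of the 10 genes in 4 comparisons of regions, with the 95% interval as a bar, called genes filled and the fold threshold dotted. Mpeg1 at 2.12, Csf1r at 1.39, C1qa at 1.37 and C1qb at 1.04 are the filled points in medulla against cortex, while Timd4, Mertk and Adgre1 lie at or below 0 there.

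To set the genes against a macrophage gene of the same array, the log2 value of Adgre1 was subtracted on each array. Each difference below is thus the gene's own medulla to cortex difference less that of Adgre1 (-0.26), so all are larger by the same amount. They come from the arrays already compared, so the permutation tests are no separate evidence, and no change per macrophage can be read from them. Relative to Adgre1, Mpeg1 averaged 0.95 ± 0.42 (SD, n = 7) in whole cortex and 3.32 ± 0.41 (SD, n = 7) in whole medulla, a difference of 2.38 (exact 2-sided permutation test, adjusted p = 8.7e-04 over 9 genes). Csf1r differed by 1.65, C1qa by 1.63, C1qb by 1.30, C1qc by 1.06 and Mfge8 by 1.05, each with the same exact permutation p of 5.8e-04, the smallest that 3432 rearrangements allow. For each of these 6 genes all 7 medullary arrays lay above all cortical arrays. Axl differed by 1.13 (exact permutation test, adjusted p = 0.0015), with 6 of 7 medullary arrays above every cortical one. Mertk differed by 0.24 (exact permutation test, adjusted p = 0.33) and Timd4 by 0.02 (exact permutation test, adjusted p = 0.94), and their arrays were mixed. After quantile normalization the Timd4 difference was -0.27 and that of Mertk -0.03, and after median scaling 0.07 and 0.27, so the direction of these 2 genes depended on the scaling. The other 7 kept their direction, with Mpeg1 at 2.60 and 2.35 and Mfge8 at 1.23 and 1.03.

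**Figure D3:**
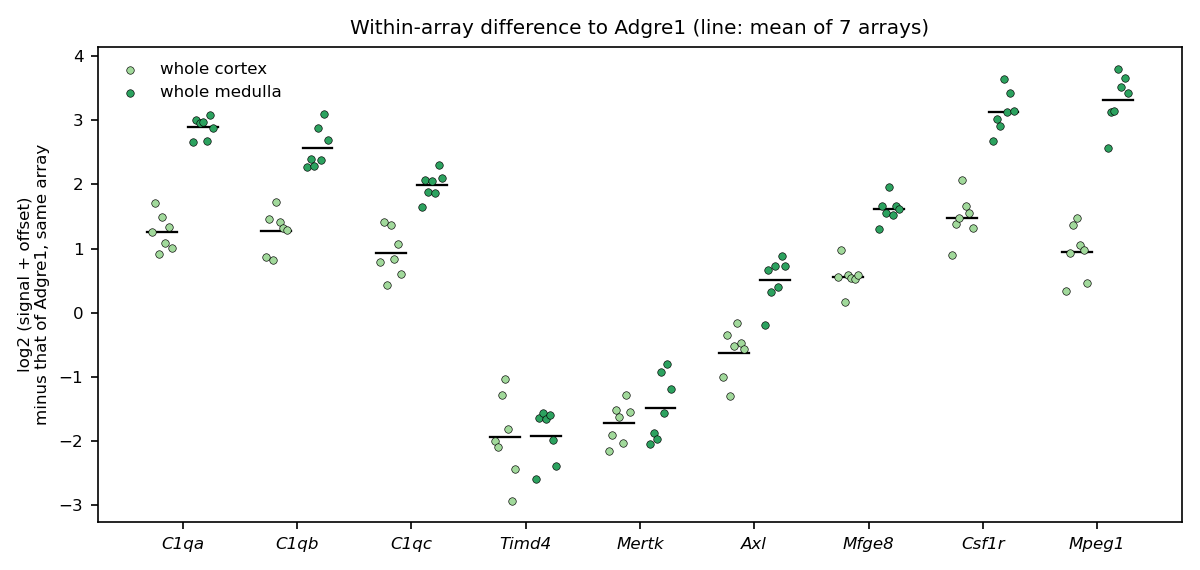
Log2 value of 9 genes minus that of Adgre1 on the same array, for 7 whole cortex and 7 whole medulla arrays, with the group means as lines. Medullary arrays lie above all cortical arrays for C1qa, C1qb, C1qc, Mfge8, Csf1r and Mpeg1, mostly above for Axl, and among them for Timd4 and Mertk.

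Of the 3 cortical subregions the perimedullary one, next to the medulla, had the highest mean for 9 of the 10 genes, Mfge8 being the exception. Between perimedullary and subcapsular cortex 5 of the 10 were called higher in the perimedullary part (Timd4, C1qc, Csf1r, Mpeg1 and C1qb) and 0 lower, where 2.94% of all genes were called higher and 4.61% in either direction. For 8 of the 10 all 3 perimedullary arrays lay above all 3 subcapsular arrays, and Axl and Mfge8 overlapped. The share of all genes whose arrays lay apart, or whose mean was highest in perimedullary cortex, was not counted. Both counts are therefore a description only. The median log2 fold change was 0.97 over the 10 and 0.00 over all genes.

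Timd4, the TIM-4 gene, read 61.4, 76.4 and 64.0 in subcapsular, 112, 146 and 129.5 in central and 286, 276 and 224 in perimedullary cortex. The 3 groups followed each other with no overlap, and the log2 fold change from subcapsular to perimedullary was 1.62 (SE 0.37, adjusted p = 0.0018), while perimedullary against central gave 0.89 (SE 0.37, adjusted p = 0.32). Its subcapsular signals were low, above the array median on 0 of the 3 arrays. C1qc read 468, 388 and 454 in subcapsular, 947, 741 and 695 in central and 1438, 1002 and 1226 in perimedullary cortex. These groups were apart as well, with a log2 difference of 1.42 (SE 0.23, adjusted p = 1.9e-05) from subcapsular to perimedullary. C1qb read 2604, 2094 and 2704, then 3658, 2945 and 3263, then 5041, 5426 and 4952 in the same order of groups, and its log2 fold change was 1.06 (SE 0.25, adjusted p = 0.0025). C1qa did not follow the steps: it read 402, 347 and 275 in subcapsular and 347, 429 and 195 in central cortex, which overlapped, and 605, 684 and 632 in perimedullary cortex. Its log2 fold change of 0.87 (SE 0.21, adjusted p = 0.0025) from subcapsular to perimedullary was under the fold threshold.

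Csf1r was level in the outer cortex and higher at the medullary border. It read 3379, 2638 and 2925 in subcapsular, 3743, 2706 and 3192 in central and 7572, 6639 and 6074 in perimedullary cortex. Its log2 fold changes were 1.18 (SE 0.21, adjusted p = 8.9e-05) against subcapsular and 1.07 (SE 0.21, adjusted p = 0.0014) against central cortex. Mpeg1 read 1825, 2047 and 1413, then 2381, 2167 and 2288, then 4046, 3479 and 3557, with no overlap between groups and a log2 difference of 1.07 (SE 0.17, adjusted p = 2.3e-05) from subcapsular to perimedullary. Adgre1 read 809, 697 and 604, then 865, 731 and 1035, then 1489, 1154 and 1165. Its perimedullary arrays were above all others, with a log2 difference of 0.83 (SE 0.20, adjusted p = 0.0032) under the fold threshold.

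The receptor kinase genes and Mfge8 were not called between subcapsular and perimedullary cortex. Mertk read 237, 318 and 211 in subcapsular, 417, 313 and 252 in central and 503, 379 and 371 in perimedullary cortex, a log2 fold change of 0.66 (95% interval 0.02 to 1.31, adjusted p = 0.16) from subcapsular to perimedullary, with all 3 perimedullary arrays above the subcapsular ones. Axl read 116, 114 and 128, then 125, 180.0 and 162, then 204, 195 and 124, with overlapping groups and a log2 fold change of 0.44 (95% interval -0.07 to 0.94, adjusted p = 0.26). Mfge8 read 2131, 1501 and 2088, then 1908, 2066 and 1993, then 1638, 1835 and 1757, with a log2 fold change of -0.11 (95% interval -0.45 to 0.22, adjusted p = 0.75). Mfge8 was the only one of the 10 whose perimedullary arrays all lay below its central arrays.

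Between perimedullary and central cortex only Csf1r was called higher, where 1.34% of all genes were called higher and 1.38% in either direction. For 7 of the 10 the perimedullary arrays were all higher, a count without its share over all genes. C1qa was at the edge of the fold threshold with 0.99 (SE 0.21, adjusted p = 0.003). It was called without central cortex replicate 1 (1.07), without central cortex replicate 2 (1.21) and without perimedullary cortex replicate 1 (1.03). The Csf1r call was lost without central cortex replicate 2 (0.96) and without perimedullary cortex replicate 1 (0.99). Between subcapsular and central cortex 0 of the 10 were called by limma, where 1.32% of all genes were (0.446% lower), 2 had an unadjusted p below 0.05, and C1qc was the lowest at -0.82 (SE 0.23, adjusted p = 0.02). In the perimedullary to subcapsular comparison, C1qb gave 0.95 without subcapsular cortex replicate 2, and Mpeg1 gave 0.92 without subcapsular cortex replicate 3. With each array scaled to the same median, which moved the fold of all genes from 0.00 to -0.19, 2 of the 10 were called there, Timd4 at 1.49 and C1qc at 1.23, and the share of called genes that were higher went from 63.9% to 37.5%, against 56.2% after quantile normalization.

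Markers of several cell types moved with the depth in the cortex, where 2.94% of all genes were called higher and 1.66% lower from subcapsular to perimedullary. Of 18 macrophage markers 6 were called higher in perimedullary than in subcapsular cortex (Lyz2, Cybb, Aif1, Cd68, Lgmn and Tyrobp) and Cd163 lower, with sums of 8985 to 10052 and 17658 to 19886 and Hmox1 under the offset in both. Of 11 dendritic cell markers 4 were called higher, with sums of 5449 to 6516 and 8166 to 8907, and Xcr1 had a mean under the offset in subcapsular cortex. B cell markers (1 of 6 called higher) summed to 748 to 837 and 1723 to 2144. Mesenchymal markers (1 of 9 called lower) summed to 7920.2 to 9747 and 5014 to 5452, and neutrophil markers, with 0 of 4 called by limma, to 4323 to 8981 and 1279 to 3462. Single markers of endothelium (Vwf) and medullary epithelium (Aire) were called higher. Their lists summed to 251 to 269.8 and 405 to 473, and to 978 to 1345 and 1515 to 1567. Single markers of cortical epithelium (Psmb11), thymocytes (Ptcra) and erythroid cells (Alas2) were called lower. The sums overlapped for cortical epithelium (26649 to 30666 and 27085 to 28351) and thymocytes (35387 to 39347 and 37749.6 to 42117). Vwf had a mean under the offset in subcapsular cortex, and Alas2 in perimedullary cortex. The part of these cell types in the perimedullary values of the 10 genes was not tested.

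The order of the 7 groups, by the probe set with the highest mean, differed between the genes. Whole regions and subregions are ranked together here, so array set and region cannot be told apart in it. The C1qa mean was 1863 in whole cortex but 341, 324 and 640.4 in the subcapsular, central and perimedullary parts of it. C1qa was highest in whole medulla, then whole cortex, then perimedullary cortex, each apart from the next, and C1qc had the same order with whole cortex and perimedullary cortex overlapping. Mpeg1 was highest in whole medulla, then perimedullary, then central cortex, each apart from the next. Axl was highest in whole medulla and then whole cortex, and below them its medullary thymocytes overlapped the cortical subregions. For Csf1r and C1qb perimedullary cortex came first, with whole medulla overlapping it. Their probe sets 1423593_a_at and 1417063_at were highest in whole medulla instead. Perimedullary cortex also came first for Timd4, with whole cortex overlapping it. It also came first for Adgre1, apart from central cortex, and for Mertk, where all 5 dissected groups formed a chain of overlapping neighbours. For Mfge8 central cortex, whole medulla, subcapsular and perimedullary cortex overlapped in a chain, and whole cortex lay below them.

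Whole medulla against perimedullary cortex, across the 2 array sets, gave different signs for genes of 1 pathway. C1qa was called higher in medulla at 2.85 (SE 0.17, adjusted p = 8.4e-16), Axl at 2.23 (SE 0.21, adjusted p = 3.0e-11) and C1qc at 1.06 (SE 0.19, adjusted p = 1.2e-05), where 20.2% of all genes were called higher, 9.09% lower and 29.3% in either direction. Without perimedullary cortex replicate 2 C1qc gave 0.93. Adgre1 at -0.99 (SE 0.17, adjusted p = 5.7e-06), Mertk at -0.92 (SE 0.27, adjusted p = 0.0032) and Timd4 at -0.74 (SE 0.31, adjusted p = 0.041) had every medullary array below every perimedullary array, with folds under the threshold. Adgre1 passed it without perimedullary cortex replicate 2 (-1.05), perimedullary cortex replicate 3 (-1.04), whole medulla replicate 1 (-1.06) or whole medulla replicate 2 (-1.01), and Mertk without whole medulla replicate 6 (-1.01). Of the called genes among all tested, 69.0% were higher in medulla, against 58.2% after quantile normalization and 31.0% after median scaling. The 10 genes then split into 3 higher and 3 lower, and into 2 higher and 4 lower. C1qa and Axl, which had the largest values here, were also those called lower in the mean subregion than in whole cortex.

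**Figure D4:**
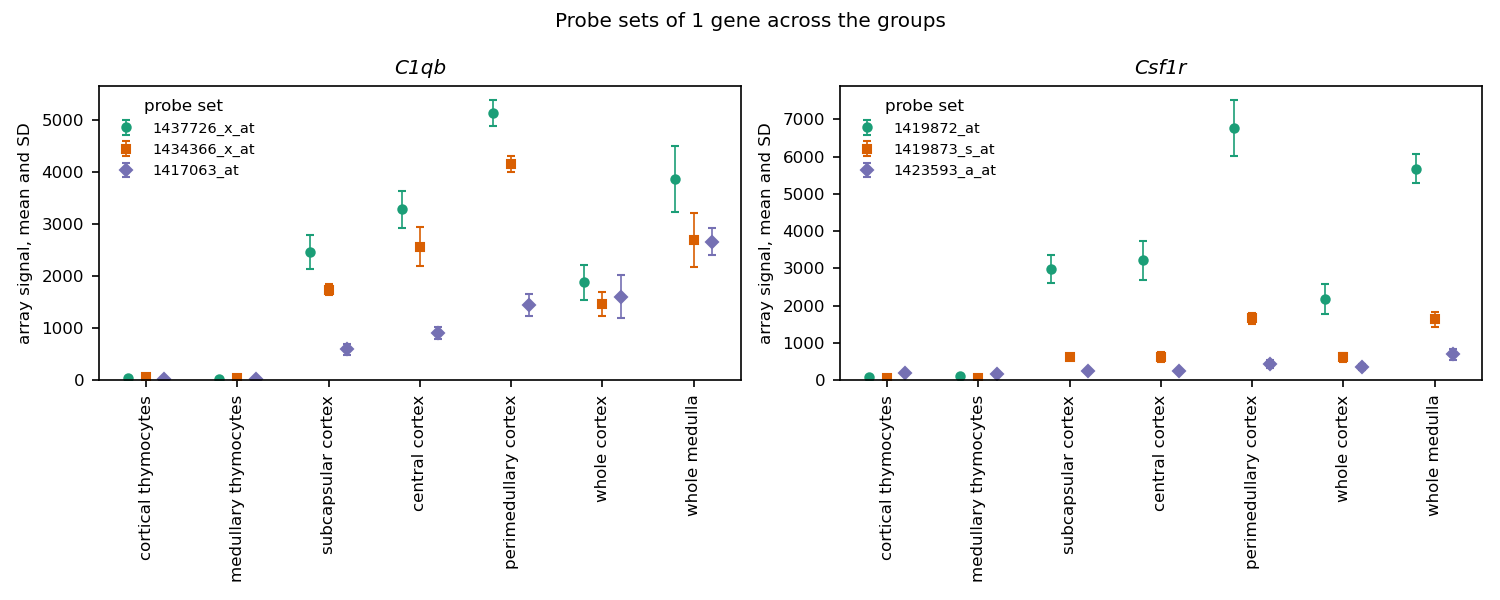
Mean array signal with SD as bars for the 3 probe sets of C1qb and the 3 of Csf1r in the 7 groups (5, 5, 3, 3, 3, 7 and 7 arrays). The C1qb probe set 1417063_at is highest in whole medulla, at 2667, while 1437726_x_at and 1434366_x_at are highest in perimedullary cortex, at 5139.5 and 4156. For Csf1r 1423593_a_at is highest in whole medulla, at 691, and its other 2 probe sets in perimedullary cortex, at 6762 and 1666.

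Probe sets of 1 gene differed where the array sets were crossed. For C1qb, whole medulla against perimedullary cortex gave 0.88 (adjusted p = 1.1e-04) with 1417063_at, -0.64 (adjusted p = 0.01) with 1434366_x_at and -0.42 (adjusted p = 0.09) with 1437726_x_at, with every probe set fitted on its own. The mean of the subregions against whole cortex gave -0.75, 0.86 and 0.89 with the same 3. Within 1 array set the C1qb probe sets had 1 direction: medulla exceeded cortex by 0.76, 0.86 and 1.04, and perimedullary exceeded subcapsular cortex by 1.26, 1.24 and 1.06, all 3 called in the latter. For Csf1r, 1419872_at and 1419873_s_at both gave 1.39 in medulla against cortex and 1423593_a_at gave 0.91. From subcapsular to perimedullary cortex they gave 1.18, 1.39 and 0.71, the first pair called. Across the array sets the Csf1r order turned too: medulla against perimedullary cortex gave -0.25, -0.04 and 0.62 (adjusted p = 0.24, 0.89 and 0.016), with 1423593_a_at at 691 ± 156 (SD, n = 7) and 441 ± 112 (SD, n = 3). The other probe set of Axl, 1438621_x_at, did not pass the filter on low signals and was not tested.

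The sorted cortical and medullary thymocytes were compared in the same way. By limma 0 of the 10 genes were called, where 14.0% of all genes were (7.69% higher and 6.31% lower), and 5 had an unadjusted p below 0.05. All 10 overlapped between the groups, and the share of all genes that did was not counted. Axl gave 117, 89.5, 135, 110.4 and 107 in cortical and 233, 168, 124, 219 and 256 in medullary thymocytes, a log2 difference of 0.69 (SE 0.19, adjusted p = 0.0038). Timd4 gave 3.51, 3.25, 7.46, 1.75 and 1.66 in cortical and 51.7, 2.67, 60.1, 7.23 and 24.6 in medullary thymocytes. The medullary values spread around the offset, and the log2 fold change was 0.77 (SE 0.29, adjusted p = 0.03), or 1.47 with an offset of 6.55, which is a call. Csf1r gave 0.56 (SE 0.16, adjusted p = 0.005), Mfge8 0.31 (SE 0.13, adjusted p = 0.049) and C1qb -0.55 (SE 0.19, adjusted p = 0.022), each under the fold threshold. The Csf1r value is that of 1419872_at, with means of 74.3 in cortical and 117 in medullary thymocytes. Its other probe sets did not share this: 1419873_s_at averaged 49.4 and 52.8, and 1423593_a_at 191 and 158.

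The medulla to cortex difference of the tissue was set against that of the sorted cells by their interaction. For C1qa and Mpeg1 this is no separate evidence, since their mean sorted signals lie under the offset (C1qb averaged 43.2 and 24.5) and the thymocyte difference there is held near 0, so the term nearly restates the tissue difference. The term was 2.15 for Mpeg1 (SE 0.17, adjusted p = 4.2e-12), 1.58 for C1qb (SE 0.25, adjusted p = 6.6e-06) and 1.35 for C1qa (SE 0.21, adjusted p = 3.7e-06), so these 3 of the 10 met the call as higher, where 12.8% of all genes were. Timd4, whose mean in cortical thymocytes of 3.52 is also under the offset, met it as lower at -1.01 (SE 0.37, adjusted p = 0.037), where 2.22% were, and 15.0% in either direction. The Timd4 call was lost without any 1 of 14 of the 24 arrays of the 4 groups, at values from -0.81 to -1.01, and on arrays with a narrow upper tail alone it was -0.30 (adjusted p = 0.57). Csf1r at 0.83 (SE 0.21, adjusted p = 0.0025) and Mfge8 at 0.48 (SE 0.16, adjusted p = 0.023) were under the fold threshold. The Csf1r value is that of its probe set with the highest mean. With every probe set fitted on its own, 7 of 14 were called higher, the other Csf1r probe sets among them, and 1 lower. Whether Csf1r met the call thus depended on the probe set. C1qc at 0.47 (95% interval 0.00 to 0.94, adjusted p = 0.12) did not pass the test. Its sorted means of 5.17 in cortical and 14.2 in medullary thymocytes were also under the offset. The thymocyte difference of 0.33 (SE 0.17) that enters its term thus comes from signals near the floor. Axl at 0.18 (95% interval -0.33 to 0.69, adjusted p = 0.63), Mertk at -0.02 (95% interval -0.67 to 0.63, adjusted p = 0.97) and Adgre1 at -0.38 (95% interval -0.80 to 0.04, adjusted p = 0.16) did not pass it either.

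Other genes of clearance were read from lists by step, beside the 18.7% of all genes called higher and the 5.39% called lower in medulla against cortex. Among bridging molecules and opsonins, 2 of 5 were called higher in medulla than in cortex: Anxa1, a phosphatidylserine-binding annexin, at 2.86 (SE 0.12, adjusted p = 1.0e-20), and Pros1, the protein S gene and a ligand of MERTK, at 1.36 (SE 0.12, adjusted p = 5.3e-12). Gas6, the ligand shared by AXL and MERTK, averaged 2187 ± 317 (SD, n = 7) in whole cortex and 1998 ± 425 (SD, n = 7) in whole medulla, with overlapping arrays and a log2 difference of -0.14 (SE 0.18, adjusted p = 0.52). The median of the 5 was 0.86. Among 13 engulfment receptors 7 were called higher and 0 lower, led by the integrin chains Itgb3 at 3.90 (SE 0.22, adjusted p = 1.5e-17) and Itgb5 at 1.65 (SE 0.15, adjusted p = 1.8e-11), partners of integrin alpha v in receptors for MFG-E8. The phosphatidylserine receptor genes Havcr1 (TIM-1) at 1.57 (SE 0.28, adjusted p = 1.2e-05) and Cd300lf at 1.49 (SE 0.27, adjusted p = 1.0e-05) were called as well, with overlapping arrays. Havcr1 had a mean under the offset in whole cortex. Itgb3 averaged 1997 ± 358 (SD, n = 5) in medullary and 23.8 ± 13.1 (SD, n = 5) in cortical thymocytes, a log2 difference of 5.36 (SE 0.26, adjusted p = 4.0e-19), and Itgb5 differed between the sorted cells by 2.53 (SE 0.18, adjusted p = 3.9e-14). Among find-me signals and receptors 3 of 5 were called higher (S1pr1 at 2.65, Cx3cr1 at 1.78 and Cx3cl1 at 1.05). Medullary thymocytes were higher than cortical ones in S1pr1 by 4.46 (SE 0.19, adjusted p = 7.5e-21) and in Cx3cr1 by 1.54 (SE 0.26, adjusted p = 8.5e-06), and Cx3cl1 gave 0.08 (SE 0.22, adjusted p = 0.8) there.

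For the intracellular steps, where 24.0% of all genes were called in either direction, the counts were as follows. Of 6 genes of the engulfment machinery 0 were called by limma and 4 had an unadjusted p below 0.05. The adaptor gene Gulp1 gave 0.87 (SE 0.34, adjusted p = 0.028), and Rac1, the GTPase of the engulfing membrane, gave -0.42 (SE 0.08, adjusted p = 2.6e-05). Of 12 genes of digestion and lipid handling only Lipa, the lysosomal acid lipase gene, was called, lower in medulla at -1.42 (SE 0.07, adjusted p = 1.7e-18). Of 4 genes of phosphatidylserine exposure and don't-eat-me signals only the scramblase gene Ano6 was called, also lower, at -1.29 (SE 0.09, adjusted p = 1.9e-14). Both were lower in medullary than in cortical thymocytes too, Lipa at -1.19 (SE 0.09, adjusted p = 4.6e-14) and Ano6 at -1.79 (SE 0.11, adjusted p = 5.3e-16). The ligands of CSF1R, Csf1 at 0.05 (SE 0.24, adjusted p = 0.87) and Il34 at 0.71 (SE 0.26, adjusted p = 0.019), were not called. From subcapsular to perimedullary cortex 2.94% of all genes were called higher and 1.66% lower. Of 5 bridging molecules and opsonins, Apoe, an opsonin and lipid carrier, was called at 1.24 (SE 0.32, adjusted p = 0.0052). Of 13 receptors Itgb3 was called at 3.05 and Havcr1, with a mean under the offset in subcapsular cortex, at 1.62. Of 5 find-me genes S1pr1 was called at 1.17. Of 4 exposure and don't-eat-me genes Sirpa, the receptor for the don't-eat-me signal CD47, was called at 1.53. Of 12 digestion and lipid genes the cholesterol exporter Abca1 was called at 1.31.

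Over the 33 arrays the genes with the most similar profile by Pearson's r of log2 values were Hebp1 (0.992), Tyrobp (0.988) and Mgst1 (0.987) for the mean of the C1q genes. For Mpeg1 they were Perp (0.992), H2-Aa (0.992) and S1pr3 (0.990), and for Csf1r Perp (0.985), Fkbp9 (0.983) and Htra1 (0.982). For Adgre1 they were Lpl (0.982), Prxl2b (0.976) and Slco2b1 (0.975), and for Mertk Clip4 (0.958), Slco2b1 (0.952) and Lpl (0.948). Timd4 was closest to Clec4n (0.919), Ms4a7 (0.912) and Cd68 (0.900), Axl to BC064078 (0.935), Lair1 (0.922) and Phlda3 (0.918), and Mfge8 to Rab15 (0.940), Nr2f6 (0.936) and Osmr (0.927). Mertk and Adgre1 thus shared Lpl and Slco2b1, and Csf1r and Mpeg1 shared Perp. All points share the contrast of sorted cells with tissue.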

How the data were processed

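Expression was measured on 33 Affymetrix arrays with biotin-labelled, oligo-dT-primed cRNA, per the labels' protocols. The deposited values are array intensity, made by the authors with Affymetrix Expression Console 1.0 and MAS5 per the submitters' processing notes; a trimmed mean of 492 to 498 on each array shows that arrays were scaled alike. No 2 arrays held identical values (highest correlation 0.9877). The number of arrays per group limits the precision.

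Values were taken as log2(signal + 26.2), the offset being the 25th percentile of signals, so folds of low genes are understated. Of the 45037 probe sets, 34945 had 1 gene symbol in the platform annotation, 932 several and 9160 none; 34741 symbols were looked up in the RefSeq table and 0 changed. Probe sets above the array median on at least 3 arrays were kept (30045, of which 24883 with 1 symbol), and the probe set with the highest mean stood for a gene. All arrays entered 1 limma fit (version 3.58.1, R 4.3.3) of 7 group means with 26 residual degrees of freedom, moderated with a trend and adjusted by Benjamini-Hochberg over 13463 genes. The fit was tested on simulated data. Differences to Adgre1 used an exact 2-sided permutation test.

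The genes named are the 10 members, up to 4 called genes of each clearance list per comparison (largest fold first), and the 3 genes most correlated with each member; Gas6, Csf1, Il34, Gulp1 and Rac1 were added after their values were seen. Members and lists were chosen with earlier results of these data known. Alternatives were offset, scaling, filter, probe set choice, groups fitted, replicate block, array weights, upper tail and leaving out each array.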

Additional observations from a re-analysis of the deposited data

Results flagged for a closer look

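In C1qa, replicate 2 of the medullary thymocytes stood apart from the other 4 arrays at a signal of 8.85, the next being 4.91. In C1qc, replicate 3 of the cortical thymocytes stood apart at 14, the next being 3.75. Both values are under the offset of 26.2, and 2 of 60 groups of arrays examined had such a gap, which chance gives in about 1 in 20.

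By the interaction term, the log2 difference between medulla and cortex was larger in dissected tissue than in sorted thymocytes by 2.15 for Mpeg1, by 1.58 for C1qb and by 1.35 for C1qa, and for Timd4 the term was -1.01. The mean signals of Mpeg1 and C1qa in both kinds of thymocyte, of C1qb in medullary thymocytes and of Timd4 in cortical thymocytes lie under the offset, which sets the thymocyte difference there. The Timd4 call was also lost without any 1 of 14 of the 24 arrays and under other settings.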

How the results depend on the processing

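Over all comparisons 1208 of 1280 values under another setting stayed on their side of the threshold or within the spread, 30 moved, 19 lost and 23 gained a call, and 0 called values changed sign. Scaling each array to the same median left 1 of the 10 called in medulla against cortex, 2 in perimedullary against subcapsular and 0 in perimedullary against central cortex, and gave 6 in medulla against perimedullary cortex and 6 in the mean subregion against whole cortex. Quantile normalization gave 6 in medulla against perimedullary cortex, and arrays with a narrow upper tail alone gave 5. An offset of 6.55 gave 1 in the thymocyte comparison and 2 in perimedullary against central cortex. In medulla against cortex C1qb lost its call at 0.63 (median scaling), 0.89 (mean of probe sets), 0.76 (plain-suffix probe sets), 0.99 (array weights) and 0.94 (arrays with a wide tail). On narrow-tail arrays alone C1qc (1.04) and Axl (1.01) were called. The Timd4 interaction lost its call with no filter (adjusted p = 0.051), with only the groups compared (0.078), with array weights (0.063) and with the tail as a term (0.2).

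Leaving out 1 array gave 3 to 4 called genes in medulla against cortex, 3 to 4 in the interaction, 4 to 5 in perimedullary against subcapsular, 1 to 2 in perimedullary against central, 3 to 4 in medulla against perimedullary cortex and 2 to 3 in the mean subregion against whole cortex. It gave 9 and 10 in the tissue to thymocyte comparisons and 0 elsewhere. Of these 1160 values 21 lost and 9 gained a call.

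The replicate numbers did not pair the arrays: same-numbered arrays of medulla and cortex deviated with correlations from -0.0335 to 0.257, and 3 of 7 correlated best with their own number. With the number as a random block (consensus correlation 0.0478) the count in medulla against cortex was 4, as without it, and the block changed no other call. Mean signals under the offset limit what can be said of C1qa, C1qc and Mpeg1 in both kinds of thymocyte. The same holds for C1qb in medullary and Timd4 in cortical thymocytes. Mertk, at means of 29.9 in cortical and 34.9 in medullary thymocytes, was close to the offset.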
